A study of Mus musculus with 11 samples.

Results

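The comparison described here set 3 libraries of neonatal lung fibroblasts lacking peptidylarginine deiminase 2 (PAD2KO 1, PAD2KO 2 and PAD2KO 3) against 3 wild-type libraries (WT 1, WT 3 and WT 4). These are all the libraries that the labels place in batch 1, and they make up 6 of the 11 libraries of the series. The other 5, WT 5, WT 6, WT 7, PAD2KO 6 and PAD2KO 7, form batch 2 and enter below only as separate libraries in which the genes of batch 1 could be looked up. All were primary lung fibroblasts of newborn mice, sorted by flow cytometry and profiled as bulk RNA, and batch means only what the labels call by that name. The labels do not say which part of Padi2 was removed, on which strain background, with which sorting gate, or whether a library came from 1 animal, a pool or a culture. P-values therefore measure the spread between these libraries only, which may be technical. Although the series is titled for basal and TNF-induced expression, no label names a treatment.

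Peptidylarginine deiminase 2, the product of Padi2, converts arginine residues of proteins, histones among them, to citrulline. Lung fibroblasts of the newborn build and remodel the matrix of the growing alveolar walls. They secrete collagens, proteoglycans and proteases, some of them carry contractile fibres, and they respond to TNF through its receptors.

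Padi2 reads were nearly absent in both genotypes of this batch. WT 1, WT 3 and WT 4 had 0 counts each, and PAD2KO 1, PAD2KO 2 and PAD2KO 3 had 1, 0 and 4. Of the other family members, Padi1 had 1 count in PAD2KO 2 and Padi6 had 1 in PAD2KO 1, while Padi3 and Padi4 had 0 in all 6. With 3 counts taken as the limit that 0 allows, the floor was 2.11 to 2.42 CPM (counts scaled to a total of 1000000 named-gene counts per library), counting error only. The genotype labels could not be checked from Padi2 at this depth.

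Libraries of batch 1 held 1241875 to 1421243 counts of named genes. The sum of 12 fibroblast markers was 4537 to 6113 TPM (abundance scaled to gene length and library total). Markers of epithelium summed to 17.0 to 41.4 TPM with 7 of 16 at 0 in every library, Sftpc and Scgb1a1 among them, and endothelial markers summed to 11.6 to 43.5 TPM. Leukocyte markers summed to 33.7 to 94.4 TPM. Mesothelial markers summed to 198, 296 and 203 TPM in WT 1, WT 3 and WT 4 and to 261, 115 and 161 TPM in PAD2KO 1, PAD2KO 2 and PAD2KO 3. Over 15 such measures no exact two-sided permutation p was below 0.4, where 3 against 3 libraries can reach 0.1 at the least. The genotypes mixed on the first principal component, which held 25.1% of the variance, and each genotype had 1 library with high Xist (742 counts in WT 1 and 750 in PAD2KO 3, against 3 to 17 in the other 4).

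Few genes passed the threshold between PAD2KO and WT fibroblasts of batch 1. Podoplanin (Pdpn) was 4.11-fold lower, and clusterin (Clu), the proteoglycan podocan (Podn), a TNF receptor (Tnfrsf1b) and a TNF family ligand (Tnfsf15) were also lower. Glycoprotein nmb (Gpnmb), the collagenase Mmp8 and the BMP antagonist gremlin 1 (Grem1) were higher. Of the genes tested for sterol and fatty acid synthesis 27 of 29 lay slightly above their WT levels, and of those for glycolysis and hypoxia 24 of 28, with 1 gene of the former past the threshold. Interferon, antigen presentation and TNF response genes held no gene past the threshold. Small differences could be missed, as in simulated counts the fit recovered 14 of 67 changes of log2 size 0.5 (20.9%).

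At an adjusted p of 0.05, edgeR's quasi-likelihood test with Benjamini-Hochberg adjustment called 22 of 9917 genes (0.222%), 7 of them higher in PAD2KO (0.0706%) and 15 lower (0.151%). In all 22 the 3 PAD2KO libraries lay entirely on 1 side of the 3 WT libraries in CPM. Over all genes tested, 633 (6.38%) were separated in this way with PAD2KO higher and 520 (5.24%) with PAD2KO lower. In TPM, which takes gene length into account, the genotypes overlapped for Tnfrsf1b, Dclk1 and Rab6b of the 22. An unadjusted p under 0.05 was found for 287 genes higher in PAD2KO (2.89%) and 304 lower (3.07%). The median log2 difference over all tested genes was 0.0045 and the median size without its sign was 0.143, so the typical gene differed little. Adjusted p-values below come from this test, levels are CPM in the order WT 1, WT 3, WT 4 and then PAD2KO 1, PAD2KO 2, PAD2KO 3, and differences are log2 of PAD2KO over WT.

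**Figure D1:**
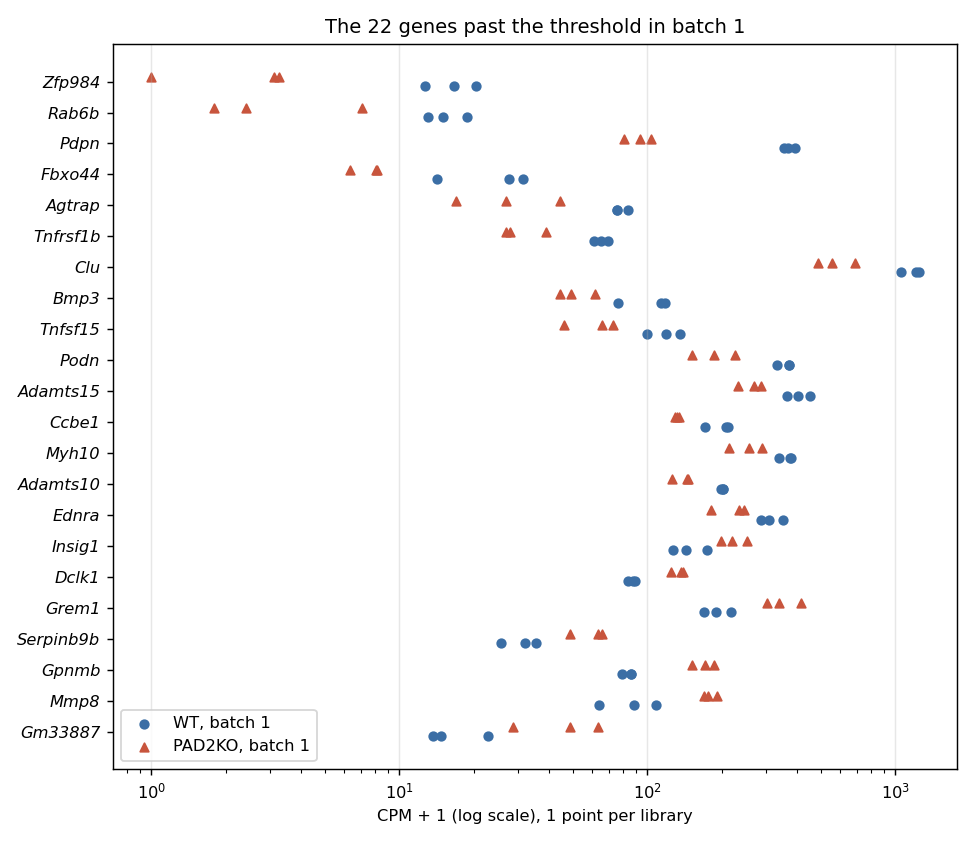
CPM + 1 on a log axis for the 22 genes past the threshold, with WT libraries of batch 1 as circles and PAD2KO libraries as triangles, 1 point per library, ordered from the lowest to the highest log2 difference. In each of the 22 rows the triangles lie on 1 side of the circles, from Zfp984 (log2 difference -3.31) to Gm33887 (1.505).

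Pdpn, a mucin-like membrane glycoprotein of fibroblastic, mesothelial, lymphatic and alveolar epithelial cells, had the smallest p of the batch. It stood at 356, 392 and 368 CPM in WT and 102, 79.5 and 92.5 CPM in PAD2KO. No PAD2KO library came near the WT range, and the gene fell by 2.04 (SE 0.12, adjusted p = 2.88e-12). The 7 mesothelial markers tested had a median log2 difference of -0.40. Their sum in PAD2KO 2 and PAD2KO 3 (115 and 161 TPM) was below that of each WT library (198 to 296 TPM), and in PAD2KO 1 (261 TPM) it was within the WT range; their part in the result was not tested. In bulk RNA, fewer cells of a type and less RNA per cell cannot be told apart. Pdpn was past the threshold in each of 17 settings, with log2 differences between -2.14 and -1.95.

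Pdpn lies on chromosome 4, as Padi2 does, 18 tested genes away from it. Of the 22 genes called, 7 lie on that chromosome, which holds 597 of the 9731 tested genes with a known position. For 5 of the 7, all lower in PAD2KO, the distance to Padi2 is under 50 tested genes, namely Pdpn (18), Tnfrsf1b (22), Zfp984 (24), Agtrap (31) and Fbxo44 (34). The labels do not name the strain in which Padi2 was targeted, so loss of the enzyme and sequence carried along with the targeted locus cannot be told apart for these neighbours.

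Agtrap, which binds the angiotensin II type 1 receptor and lowers its signalling, stood at 74.7, 74.2 and 82.9 CPM in WT and 43.6, 26.03 and 15.9 CPM in PAD2KO. The groups did not overlap (log2 difference -1.45, SE 0.24, adjusted p = 0.00872). Fbxo44, a substrate-binding subunit of a ubiquitin ligase, stood at 13.2, 30.4 and 26.6 CPM in WT and 7.13, 7.04 and 5.30 CPM in PAD2KO, again without overlap (log2 difference -1.85, SE 0.35, adjusted p = 0.0112). Zfp984, a zinc finger gene, had 11.7, 15.6 and 19.3 CPM in WT and 0, 2.11 and 2.27 CPM in PAD2KO, at or below the floor, with 0, 3 and 3 counts in the PAD2KO libraries (log2 difference -3.31, SE 0.53, adjusted p = 0.00143). At such counts the fitted difference depends on the prior count of the fit. It belongs to a cluster of similar zinc finger genes between which reads are divided by a model, so its level is uncertain. Zfp933, from the same neighbourhood, had 6.22, 7.07 and 6.44 CPM in WT and 12.7, 23.2 and 18.9 CPM in PAD2KO and did not pass (log2 difference 1.45, adjusted p = 0.0811). Clcn6, a chloride and proton exchanger of late endosomes, also missed the threshold, with 21.8, 19.1 and 19.3 CPM in WT and 39.6, 34.5 and 40.9 CPM in PAD2KO (log2 difference 0.92, adjusted p = 0.0785).

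The neighbourhood as a whole did not lean far to either side. Of 48 genes listed around Padi2, 34 were tested, 16 of which lay above 0 and 18 below, with a median log2 difference of -0.07, which was 0.04 without WT 4. The 5 calls were all lower. Of the 34, 7 genes were higher and 8 lower without overlap between genotypes (all genes: 6.38% and 5.24%). At an unadjusted p under 0.05, 4 were higher (11.8%) and 8 lower (23.5%), where all genes gave 2.89% and 3.07%. Separated genes were thus more frequent here than over all genes, in both directions. Mfap2, a microfibril protein 3 tested genes from Padi2, was among the lower ones without overlap, with 72.3, 84.1 and 78.9 CPM in WT and 54.7, 51.4 and 50.02 CPM in PAD2KO (adjusted p = 0.114).

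A receptor and a ligand of the TNF family passed the test, both lower in PAD2KO, and no TNF response gene did. Tnfrsf1b, the second TNF receptor, stood at 63.8, 60.1 and 68.4 CPM in WT and 26.9, 26.03 and 37.9 CPM in PAD2KO, a separation of every PAD2KO from every WT library in CPM (log2 difference -1.09, SE 0.19, adjusted p = 0.00328). In TPM it had 21.9, 20.8 and 24.1 in WT and 8.94, 9.08 and 23.3 in PAD2KO, so PAD2KO 3 lay within the WT range. Tnfsf15, a ligand of the family, stood at 135, 118 and 98.2 CPM in WT and 64.9, 45.0 and 72.0 CPM in PAD2KO (log2 difference -0.97, SE 0.16, adjusted p = 0.00328). Of the 15 genes tested among receptors and ligands of the superfamily, 13 lay below 0 (median -0.26, and -0.15 without WT 1) and those 2 passed. The member farthest above 0 was Tnfrsf22, a decoy receptor for TRAIL with similar neighbouring copies, chosen for mention after its values were seen. It had 3.89, 6.36 and 4.83 CPM in WT and 12.7, 12.7 and 17.4 CPM in PAD2KO, without overlap and with an unadjusted p under 0.05, but did not pass (adjusted p = 0.13). Tnfrsf19, a receptor without a TNF ligand of its own, was the next lower member by p with 35.0, 58.0 and 45.9 CPM in WT and 22.97, 23.2 and 27.3 CPM in PAD2KO (adjusted p = 0.0758). The gene of the first TNF receptor, Tnfrsf1a, chosen for mention after its values were seen, had 254, 242 and 298 CPM in WT and 298, 229 and 239 CPM in PAD2KO (log2 difference -0.06, SE 0.12).

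Among 26 tested TNF and NF-kB response genes, 16 lay above 0 and 10 below with a median of 0.08, and none passed. Of these, 2 had an unadjusted p under 0.05 with higher PAD2KO levels (7.69%, all genes: 2.89%) and 1 with lower (3.85%, all genes: 3.07%). Ccl7, a monocyte chemokine, stood at 32.7, 43.1 and 41.9 CPM in WT and 72.9, 57.0 and 65.2 CPM in PAD2KO, with no overlap (log2 difference 0.71, SE 0.18, adjusted p = 0.114). Nfkb1, which encodes the p105 precursor of an NF-kB subunit, stood at 27.2, 25.5 and 27.4 CPM in WT and 15.05, 22.5 and 18.9 CPM in PAD2KO (adjusted p = 0.825). The 27 interferon-stimulated genes tested had a median of -0.04 and the 13 genes of MHC class I and peptide loading one of 0.03, with none past the threshold in either list. At an unadjusted p under 0.05 they held 1 gene each, Iigp1 lower (131, 99.7 and 112 CPM in WT and 84.0, 101 and 92.5 CPM in PAD2KO) and B2m higher (348, 440.5 and 393 CPM in WT and 423, 458 and 532 CPM in PAD2KO), and DESeq2 called no gene of these 3 lists.

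After Pdpn, the lower genes with the smallest p were Clu and Podn. Clu, a secreted chaperone that also restrains complement, stood at 1213, 1246 and 1056 CPM in WT and 688, 488 and 555 CPM in PAD2KO. The lowest WT library exceeded the highest PAD2KO library by a wide margin (log2 difference -1.04, SE 0.12, adjusted p = 2.90e-05). Podn, a small leucine-rich proteoglycan that binds collagen, stood at 373, 332 and 370.4 CPM in WT and 150.5, 185 and 225 CPM in PAD2KO (log2 difference -0.95, SE 0.12, adjusted p = 3.88e-05). It lies on chromosome 4 too, but 238 tested genes from Padi2. Clu was the only one of 14 tested complement genes past the threshold, the list having a median of -0.07, and of 0.05 without PAD2KO 2. The complement protease gene C2 had 40.4, 60.8 and 42.7 CPM in WT and 21.4, 25.3 and 30.3 CPM in PAD2KO and narrowly missed it (log2 difference -0.92, adjusted p = 0.0758).

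Matrix genes lay mostly below their WT levels, by small amounts. Of 13 interstitial collagen genes tested, 11 lay below 0 with a median of -0.25 (-0.16 without WT 4). At an unadjusted p under 0.05, 5 were lower (38.5%, all genes: 3.07%) and none higher, and none passed. Col5a2, a chain of the fibril-nucleating type V collagen, stood at 1739, 1773 and 1803 CPM in WT and 1471, 1457 and 1364 CPM in PAD2KO, every PAD2KO library below every WT library (log2 difference -0.32, SE 0.10, adjusted p = 0.247). Col14a1, a fibril-associated collagen, had 42.8, 46.7 and 47.5 CPM in WT and 26.1, 35.9 and 28.0 CPM in PAD2KO (adjusted p = 0.354). Lox, the enzyme that starts collagen and elastin crosslinking, stood at 558, 620.0 and 592 CPM in WT and 429, 457 and 455 CPM in PAD2KO, without overlap (log2 difference -0.41, SE 0.10, adjusted p = 0.0811). DESeq2, run as an alternative, called Col5a2 and Lox. In the small leucine-rich proteoglycans, 5 of 7 lay below 0 (median -0.23), with Podn past the threshold and Prelp, which anchors basement membranes to connective tissue, at 133, 102 and 119 CPM in WT and 83.2, 85.1 and 78.1 CPM in PAD2KO (adjusted p = 0.0897). Without PAD2KO 2 the median of that list was -0.03. Matricellular genes followed with 13 of 17 below 0 (median -0.17, and -0.10 without WT 3) and none past the threshold. At an unadjusted p under 0.05, 2 were lower (11.8%) and 1 higher (5.88%), where all genes gave 3.07% and 2.89%.

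ADAMTS proteases, secreted metalloproteases that cut proteoglycans and process matrix proteins, had 10 of 12 genes below 0 with a median of -0.25, which was -0.39 without PAD2KO 2. Adamts15, which cleaves aggrecan and versican, stood at 366, 405 and 453 CPM in WT and 231, 268 and 287 CPM in PAD2KO and was lower in each PAD2KO library (log2 difference -0.65, SE 0.11, adjusted p = 0.0031). Adamts10, a protease of the microfibril environment, had 201, 197 and 201 CPM in WT and 125, 144 and 144 CPM in PAD2KO (log2 difference -0.55, SE 0.12, adjusted p = 0.029), a call that held in 0 of the 6 fits that left out 1 library. Adamts7 had 42.0, 48.8 and 52.3 CPM in WT and 23.8, 28.8 and 28.8 CPM in PAD2KO and did not pass (adjusted p = 0.0811). Versican itself (Vcan), a large proteoglycan of provisional matrix, had 297, 248 and 250.4 CPM in WT and 364, 332 and 319.8 CPM in PAD2KO, higher in each PAD2KO library but not past the threshold (adjusted p = 0.349).

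Contractile and actin genes lay just under their WT levels, 21 of 22 below 0, but the median was only -0.12. Myh10, the heavy chain of nonmuscle myosin IIB, passed, with 339, 377 and 380.1 CPM in WT and 255, 288 and 213 CPM in PAD2KO (log2 difference -0.55, SE 0.12, adjusted p = 0.029). The smooth muscle calponin Cnn1 overlapped between genotypes, with 556, 479 and 521 CPM in WT and 387, 533 and 377 CPM in PAD2KO (adjusted p = 0.761). PAD2KO 1 had the lowest mean over this list and PAD2KO 2 the highest of the 6 libraries, and the median was -0.05 without PAD2KO 1 and -0.22 without PAD2KO 2. The summed smooth muscle and pericyte markers were lowest in PAD2KO 1 too, 1076 TPM against 1342 and 1814 TPM in the other PAD2KO libraries and 1509 to 1697 TPM in WT; their part in the result was not tested. Ednra, the endothelin receptor of smooth muscle and fibroblasts, was called lower at 353, 287 and 308 CPM in WT and 179, 234 and 244 CPM in PAD2KO (log2 difference -0.54, SE 0.12, adjusted p = 0.0443). That call, too, held in 0 of the 6 fits that left out 1 library.

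Secreted signals split between directions. Grem1, which binds and blocks BMP ligands, stood at 217, 169 and 188 CPM in WT and 416, 339 and 303 CPM in PAD2KO, each PAD2KO library above each WT library (log2 difference 0.87, SE 0.13, adjusted p = 0.000447). Bmp3, an atypical BMP that can oppose other BMPs, moved the other way with 75.5, 117 and 113 CPM in WT and 48.3, 43.6 and 60.6 CPM in PAD2KO (log2 difference -1.02, SE 0.17, adjusted p = 0.00328). They were the only 2 genes called among 17 tested BMP ligands, antagonists and Id targets, whose median was -0.08. Ccbe1, a secreted cofactor in the maturation of the lymphatic growth factor VEGF-C, fell as well, with 206, 211 and 169 CPM in WT and 128, 130.2 and 133 CPM in PAD2KO (log2 difference -0.60, SE 0.12, adjusted p = 0.0221). Rab6b, a Golgi GTPase known mainly from neurons, had 14.0, 17.7 and 12.1 CPM in WT and 0.792, 1.41 and 6.06 CPM in PAD2KO with PAD2KO 1 and PAD2KO 2 under the floor (log2 difference -2.39, SE 0.49, adjusted p = 0.0221).

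Of the genes that rose, Gpnmb had the smallest p. It encodes a membrane glycoprotein of melanosomes and lysosomes and stood at 84.8, 84.8 and 78.1 CPM in WT and 185, 151 and 169.8 CPM in PAD2KO, with a gap between the highest WT and the lowest PAD2KO library (log2 difference 1.01, SE 0.13, adjusted p = 3.88e-05). Mmp8, the neutrophil collagenase that fibroblasts can also make, had 107, 62.9 and 87.8 CPM in WT and 169, 189 and 174 CPM in PAD2KO (log2 difference 1.04, SE 0.15, adjusted p = 0.000393). Leukocyte markers summed to 33.7 to 84.3 TPM in WT and 42.2 to 94.4 TPM in PAD2KO, and the 2 of 17 that were tested had a median log2 difference of 0.41. Their part in the result was not tested. Dclk1, a doublecortin-like microtubule kinase, stood at 87.9, 86.3 and 82.9 CPM in WT and 138, 123 and 136 CPM in PAD2KO (log2 difference 0.61, SE 0.13, adjusted p = 0.0221). Serpinb9b, a member of a serpin family with close copies, had 31.1, 24.7 and 34.6 CPM in WT and 64.9, 47.8 and 62.1 CPM in PAD2KO (log2 difference 0.94, SE 0.20, adjusted p = 0.0287). Gm33887, an uncharacterised gene, had 21.8, 12.7 and 13.7 CPM in WT and 27.7, 47.8 and 62.1 CPM in PAD2KO (log2 difference 1.505, SE 0.28, adjusted p = 0.0166). The level of Serpinb9b is uncertain where its copies share reads.

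**Figure D2:**
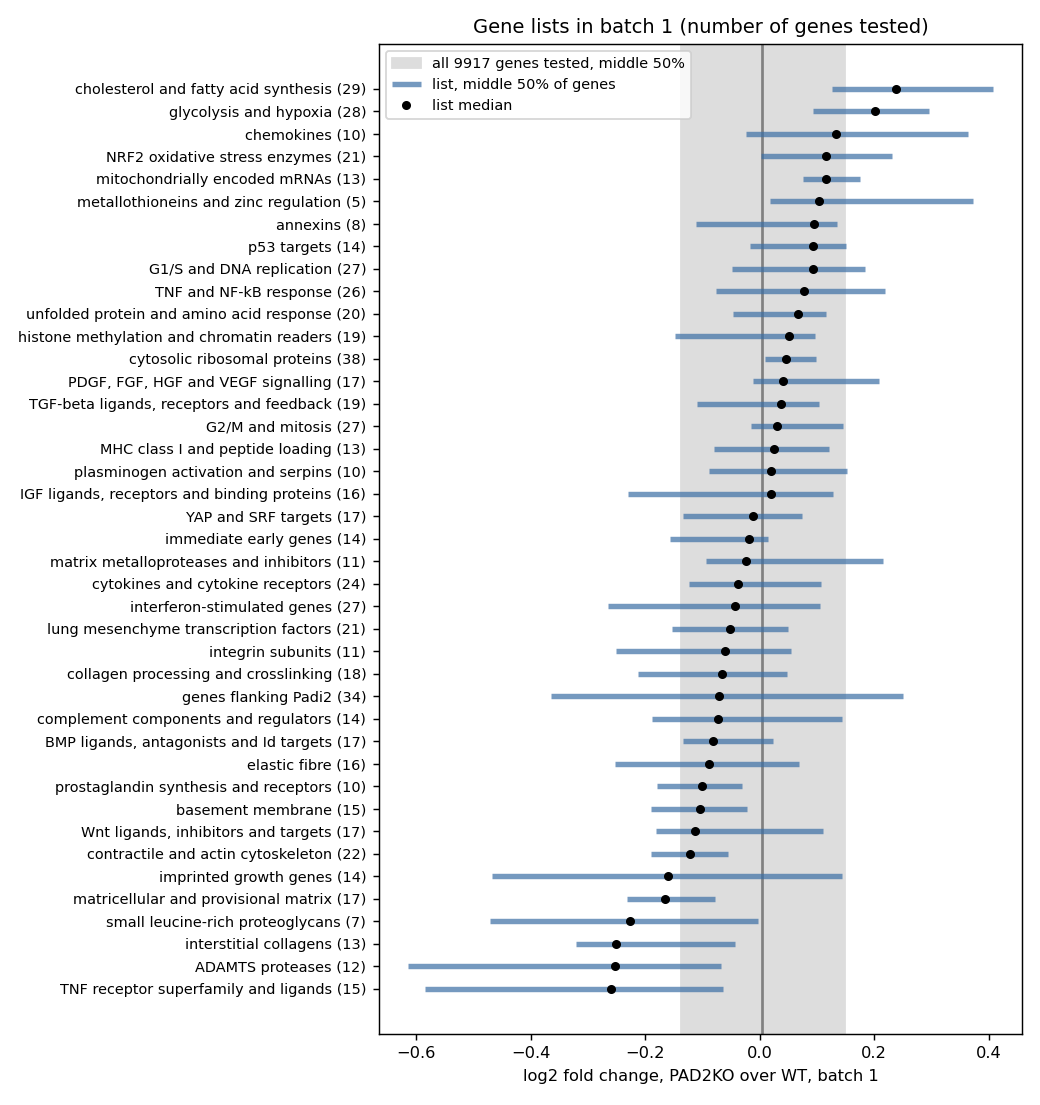
Median log2 difference between PAD2KO and WT in batch 1 (points) and middle 50% of genes (bars) for 41 gene lists, with the number of genes tested in brackets, over a grey band for the middle 50% of all 9917 tested genes. Cholesterol and fatty acid synthesis (0.24) and glycolysis and hypoxia (0.20) have the highest medians, and TNF receptors and ligands (-0.26), ADAMTS proteases (-0.25) and interstitial collagens (-0.25) the lowest.

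Genes of cholesterol and fatty acid synthesis formed the list with the highest median of the 41. All 29 listed were tested, 27 lay above 0 (all genes: 50.95%), and the median log2 difference was 0.24, where all genes gave 0.0045. An unadjusted p under 0.05 with higher PAD2KO levels was found for 10 of them (34.5%, all genes: 2.89%). None had one with lower levels (all genes: 3.07%). In 15 the PAD2KO libraries all lay above the WT libraries (all genes: 6.38%), and in none all below (all genes: 5.24%). By the adjusted p, Insig1 alone passed.

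Insig1, an endoplasmic reticulum protein that retains the sterol sensor SCAP and is itself induced when sterols are low, stood at 173, 126 and 142 CPM in WT and 250.3, 196 and 219 CPM in PAD2KO. Every PAD2KO library lay above every WT library (log2 difference 0.58, SE 0.13, adjusted p = 0.0443). Idi1, which makes the isoprenoid building block dimethylallyl diphosphate, stood at 95.7, 79.2 and 69.3 CPM in WT and 118, 105 and 136 CPM in PAD2KO (log2 difference 0.54, SE 0.14, adjusted p = 0.119). Sc5d, a late step of cholesterol synthesis, stood at 139, 139 and 124 CPM in WT and 207, 187 and 167 CPM in PAD2KO (log2 difference 0.46, SE 0.12, adjusted p = 0.13). Neither overlapped between genotypes, and neither passed. The genes of the regulators themselves, chosen for mention after their values were seen, lay close to WT, with log2 differences of 0.02 (SE 0.13) for Srebf2 and -0.11 (SE 0.13) for Srebf1. The call of Insig1 was lost in 4 of the 6 fits that left out 1 library, those without WT 3, WT 4, PAD2KO 1 or PAD2KO 3, and in 6 of 10 other settings, DESeq2 among them, with an adjusted p of up to 0.640 and log2 differences between 0.48 and 0.72. By contrast, the median of the list stayed between 0.22 and 0.30 whichever of the 6 libraries was left out.

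Glycolysis and hypoxia genes came second, with 24 of 28 tested genes above 0 and a median of 0.20. Here 10 had an unadjusted p under 0.05 with higher PAD2KO levels (35.7%, all genes: 2.89%) and none with lower (all genes: 3.07%). In 9 the genotypes were separated upward (all genes: 6.38%), and no gene passed here or by DESeq2. Slc16a3, the lactate exporter MCT4, stood at 28.8, 27.6 and 20.1 CPM in WT and 38.0, 69.7 and 44.7 CPM in PAD2KO (log2 difference 0.98, SE 0.23, adjusted p = 0.0803). Bnip3, a mitochondrial protein that starts mitophagy in low oxygen, stood at 49.8, 62.9 and 42.7 CPM in WT and 91.1, 90.1 and 76.5 CPM in PAD2KO (log2 difference 0.71, SE 0.17, adjusted p = 0.0758). Pgk1, the first ATP-yielding enzyme of glycolysis, had 296, 314 and 357 CPM in WT and 419.8, 449.6 and 379 CPM in PAD2KO (log2 difference 0.36, SE 0.11, adjusted p = 0.255). In each of the 3 genes every PAD2KO library lay above every WT library. The hypoxia sensor Egln3, an oxygen-dependent hydroxylase chosen for mention after its values were seen, overlapped, with 24.9, 19.1 and 10.5 CPM in WT and 12.7, 15.5 and 26.5 CPM in PAD2KO (log2 difference -0.02, SE 0.32). Leaving out any 1 of the 6 libraries kept the median of the list between 0.15 and 0.26.

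The promoters of Bnip3, Slc16a3 and Pgk1 are shown. Each sequence comes from the RefSeq table on GRCm38.p6 and runs from 250 bases before the start of transcription to 50 bases after it, 5′ to 3′ on the strand of the gene. Bnip3 is at chr7:138909457-138909756 on the minus strand, Slc16a3 at chr11:120948817-120949116 on the plus strand and Pgk1 at chrX:106186850-106187149 on the plus strand. Capitals mark ACGTG, the core letters of the hypoxia response element, or its reverse complement CACGT; in Bnip3 the 2 overlap in 1 palindrome.
Bnip3: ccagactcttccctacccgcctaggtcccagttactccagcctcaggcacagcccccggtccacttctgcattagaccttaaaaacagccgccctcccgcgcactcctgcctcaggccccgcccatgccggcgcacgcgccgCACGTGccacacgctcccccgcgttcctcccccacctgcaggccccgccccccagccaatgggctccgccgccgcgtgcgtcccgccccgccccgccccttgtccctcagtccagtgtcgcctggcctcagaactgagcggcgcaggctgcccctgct
Slc16a3: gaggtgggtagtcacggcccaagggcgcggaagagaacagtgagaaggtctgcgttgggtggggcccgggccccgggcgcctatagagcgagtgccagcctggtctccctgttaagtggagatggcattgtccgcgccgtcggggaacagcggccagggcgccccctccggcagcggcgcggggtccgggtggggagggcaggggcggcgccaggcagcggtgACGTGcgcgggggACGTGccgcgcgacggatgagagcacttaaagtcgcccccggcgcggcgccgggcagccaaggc
Pgk1: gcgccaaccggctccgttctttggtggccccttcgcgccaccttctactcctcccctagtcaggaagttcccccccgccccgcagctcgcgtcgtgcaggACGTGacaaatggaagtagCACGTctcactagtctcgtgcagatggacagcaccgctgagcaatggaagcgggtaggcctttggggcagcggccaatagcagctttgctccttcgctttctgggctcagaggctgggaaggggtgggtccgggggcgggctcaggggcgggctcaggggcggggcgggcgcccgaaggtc

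Each of the 3 windows held the core 2 times, counting both strands. Over the glycolysis and hypoxia list, 24 of 43 promoters (29 genes matched) held it, 55.8%, where 19.6% of all 32851 promoters of this length did. As the list was drawn up for hypoxia genes, this share may follow from that choice alone. It says nothing about the genotype difference. For the sterol regulatory element TCACNCCAC, searched on both strands, 1 of 26 promoters of the cholesterol and fatty acid list held a match (20 genes matched), 3.85%, against 1.24% of all promoters. The glycolysis and hypoxia list had a larger share of this element, 2 of 43 promoters (4.65%), so it was not particular to the sterol list. Base composition was not matched in these shares, and a match describes the letters of a window only.

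**Figure D3:**
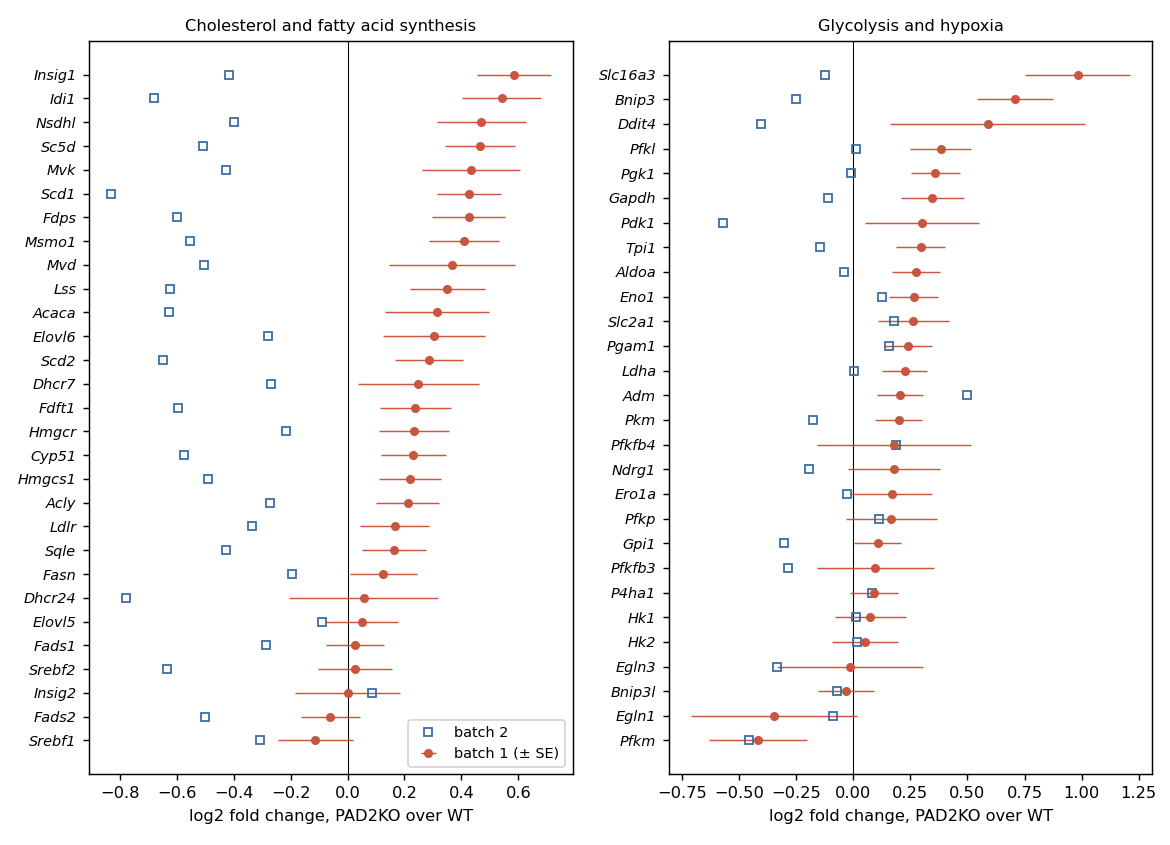
Log2 difference between PAD2KO and WT for each tested gene of cholesterol and fatty acid synthesis (left) and of glycolysis and hypoxia (right), with batch 1 as filled points with standard errors and batch 2 as open squares. In batch 1, 27 of 29 and 24 of 28 genes lie above 0, and on the left most of the open squares lie below 0, with a batch 2 median of -0.49.

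Other lists gave weaker or more mixed pictures. All 13 mitochondrially encoded mRNAs lay above 0 (median 0.12, and -0.03 without PAD2KO 1), but their mean log2 level varied from 9.03 in PAD2KO 2 to 10.08 in PAD2KO 1, so PAD2KO held both the lowest and the highest library and none passed. Mitosis genes (median 0.03 over 27, and -0.12 without WT 1) likewise spread widely within both genotypes, the mean log2 level running from 5.85 to 6.75 in PAD2KO and from 5.99 to 6.69 in WT. The metallothionein Mt1, which binds zinc and copper, stood at 189, 198 and 206 CPM in WT and 380.2, 249.8 and 259.9 CPM in PAD2KO, without overlap (log2 difference 0.57, SE 0.14, adjusted p = 0.114). Igfbp3, which binds insulin-like growth factors, had 52.9, 90.5 and 69.3 CPM in WT and 40.4, 15.5 and 39.4 CPM in PAD2KO (log2 difference -1.19, SE 0.33, adjusted p = 0.405). The leptin receptor gene Lepr stood at 20.2, 22.6 and 16.9 CPM in WT and 47.5, 30.3 and 32.6 CPM in PAD2KO (log2 difference 0.86, SE 0.24, adjusted p = 0.164). Tbx4, a transcription factor of lung mesenchyme, had 23.3, 24.7 and 17.7 CPM in WT and 9.50, 13.4 and 15.9 CPM in PAD2KO (adjusted p = 0.553). Peg10, an imprinted gene derived from a retrotransposon, had 49.8, 61.5 and 39.5 CPM in WT and 27.7, 30.3 and 27.3 CPM in PAD2KO (adjusted p = 0.085).

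**Figure D4:**
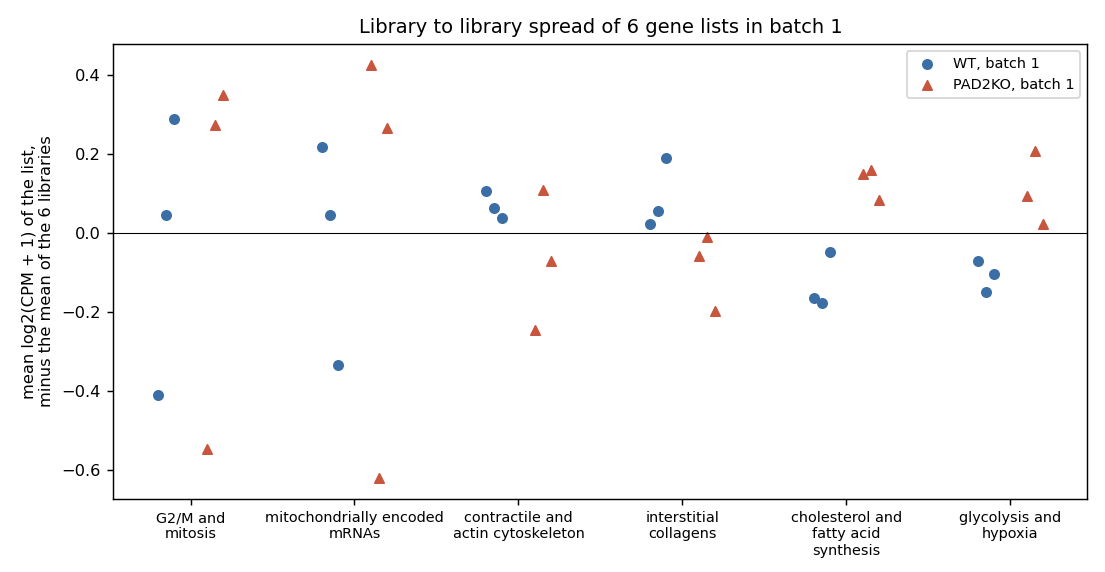
Mean log2(CPM + 1) of 6 gene lists in each library of batch 1, minus the mean of the 6 libraries, with WT as circles and PAD2KO as triangles. The 2 metabolic lists on the right separate the genotypes, and so do the interstitial collagens, by a narrow gap. Mitosis genes and mitochondrial mRNAs spread more within a genotype than the genotypes differ.

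The 5 libraries of batch 2 allowed the 22 genes to be read in libraries that had no part in choosing them. Of the 22, 14 had the same sign there, 12 of the 15 lower genes and 2 of the 7 higher genes (Gm33887 and Serpinb9b). The share of all tested genes with the same sign in both batches was not counted, so 14 of 22 has no background here. Past the threshold and in the same direction were 6, namely Pdpn, Zfp984, Adamts15, Tnfrsf1b, Agtrap and Fbxo44, and none was past it in the opposite direction. The batch 2 contrast, taken from a fit over all 11 libraries with 1 estimate of spread, called 313 of 10731 genes in all (2.92%). Of these 6, 5 are the neighbours of Padi2 named above. Adamts15, the exception, is on chromosome 9 and had 40.6, 22.4 and 24.9 CPM in WT 5, WT 6 and WT 7 and 9.69 and 13.1 CPM in PAD2KO 6 and PAD2KO 7 (log2 difference in batch 2 -1.37, adjusted p = 0.00594).

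A direct test of the difference between batches, by the contrast of batch 2 minus batch 1 in edgeR's quasi-likelihood test over all 11 libraries, called 155 of 10731 genes (1.44%). That count was 34 without PAD2KO 7, 91 without WT 3 and 97 without PAD2KO 3. Among the 22 genes it called 4, but these were chosen by their batch 1 difference, which the contrast subtracts. For Pdpn the fall was deeper in batch 2, with 1142, 1332 and 1042 CPM in WT 5, WT 6 and WT 7 and 109 and 111 CPM in PAD2KO 6 and PAD2KO 7. The direct difference was -1.37 (SE 0.18, adjusted p = 0.000127). Mean WT levels were 1172 CPM in batch 2 and 372 CPM in batch 1, and mean PAD2KO levels were 109.8 CPM and 91.4 CPM. Grem1 had 606, 739 and 832 CPM in WT 5, WT 6 and WT 7 and 555 and 545 CPM in PAD2KO 6 and PAD2KO 7, a log2 difference of -0.40 that did not pass by itself. The direct difference was -1.27 (SE 0.20, adjusted p = 0.000988).

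Insig1 had 195, 197 and 189 CPM in WT 5, WT 6 and WT 7 and 169 and 122 CPM in PAD2KO 6 and PAD2KO 7, and the direct difference was -0.997 (SE 0.20, adjusted p = 0.00832). It was not alone in its list, where 9 of 29 genes had a more negative genotype difference in batch 2 by this test and none a more positive one, with a median of -0.80. Ednra had 21.8, 23.1 and 15.6 CPM in WT 5, WT 6 and WT 7 and 42.0 and 25.5 CPM in PAD2KO 6 and PAD2KO 7, a direct difference of 1.25 (SE 0.28, adjusted p = 0.0199). Contractile genes differed likewise, 10 of 22 with a more positive genotype difference in batch 2 and none with a more negative one, with a median of 0.69. In interferon-stimulated genes 10 of 27 had a more negative one. For Gpnmb, Mmp8 and Dclk1, whose signs differed between batches, the direct test did not pass (adjusted p = 0.241, 0.0771 and 0.0951).

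**Figure D5:**
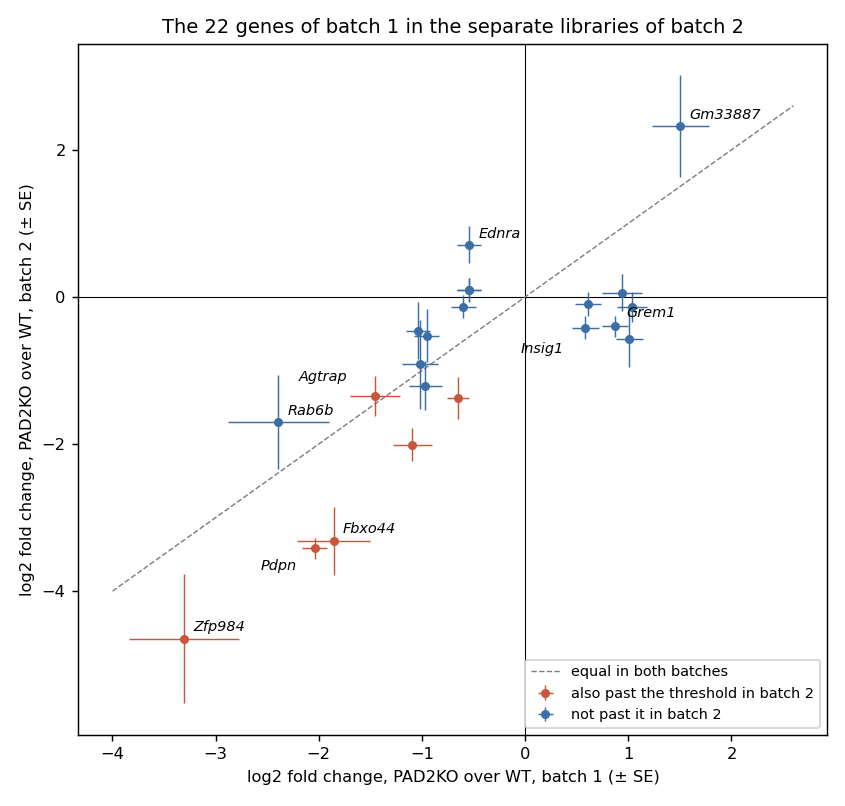
Log2 difference between PAD2KO and WT with standard errors for the 22 genes called in batch 1, batch 1 on the horizontal axis and the separate libraries of batch 2 on the vertical axis, with the 6 genes also past the threshold in batch 2 in red. Points in the lower left lie below 0 in both batches, Pdpn and Fbxo44 fall under the line of equality, and 5 of the 7 genes higher in batch 1 lie below 0 in batch 2.

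The number of calls depended on the libraries and the settings. Without WT 3 it was 5 (Pdpn, Clu, Podn, Gpnmb and Mmp8) and without WT 4 it was 10, whereas without PAD2KO 1 it was 34. Tnfrsf1b, Grem1 and Zfp984 missed narrowly without WT 3 (edgeR adjusted p = 0.0643 for each), at log2 differences of -1.13, 0.80 and -3.30. Adamts10 and Ednra were called in 0 of the 6 fits that left out 1 library, and Dclk1, Rab6b and Serpinb9b in 1. With the effective gene lengths entered as offsets only Pdpn remained, and the common biological coefficient of variation rose from 0.114 to 0.209 in that fit. All 22 genes kept their sign in each of the 17 settings. As their groups did not overlap in CPM, leaving out 1 library could hardly reverse it, so this says little about stability. Of the 41 list medians, which were not chosen in this way, 20 took the other sign in at least 1 alternative.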

How the data were processed

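Bulk RNA of sorted neonatal lung fibroblasts was measured. Per the labels' protocols, libraries were made with a SMARTer kit for SmartSeq2, which carries no molecular identifiers. The submitters' processing notes name GRCm39, Salmon 1.3.2, DESeq2 1.46.0 and fastp, without their roles; annotation and strand setting are not given in the sources used here. A table that the authors deposited holds estimated counts, TPM and effective gene lengths per library, as its headers say. The deposited TPM served for marker sums, and the lengths only as an alternative.

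Entries without a symbol (23133 of 56065, 3.80% to 4.90% of a batch 1 library) were left out. The remaining estimated counts were summed per symbol and rounded. edgeR 4.0.16 in R 4.3.3 (filterByExpr, TMM, robust quasi-likelihood fit) compared the 6 libraries of batch 1, and a fit of 4 group means over 11 libraries compared the batches, with Benjamini-Hochberg adjustment at 0.05. SE is the size of the log2 difference divided by the square root of F. Exact permutation used all 20 splits of 3 and 3. Python 3.11.15 and SciPy 1.17.1 were used. DESeq2 1.42.0 and other filters, scalings and blocks were alternatives, and a term for high Xist was added after seeing the data.

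The members and lists were chosen with earlier results of these data known. The rule named all genes past the threshold, filled each direction to 12 by p among genes without overlap between genotypes, and took up to 3 members per list with an unadjusted p under 0.05. Gene order came from a RefSeq table of GRCm38.p6, another build than the authors', and was used for chromosomes and neighbours only. Within batch 1, no 2 libraries of the same genotype agreed within counting noise. The fits were tested on simulated counts with known changes. In the batch 1 design, 14 of 67 changes of log2 size 0.5, 47 of 63 of size 1 and 63 of 65 of size 2 were recovered. Of the 132 calls there, 8 were false. The contrast between batches recovered 0 of 64, 27 of 64 and 49 of 65 at these sizes.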

Additional observations from a re-analysis of the deposited data

Results flagged for a closer look

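Of the 84 genes picked by the rule for naming genes, 19 had a genotype difference that itself differed between batch 1 and batch 2, by the contrast of batch 2 minus batch 1 in edgeR's quasi-likelihood test over 11 libraries (log2 scale, adjusted p in brackets). The 84 were chosen by their batch 1 values, and the contrast subtracts the batch 1 difference. Their share therefore cannot be set against the 155 of 10731 (1.44%) over all genes. In 10 of the 19 the difference was more negative in batch 2. Among these were Pdpn at -1.37 (0.000127), Grem1 at -1.27 (0.000988), Insig1 at -0.997 (0.00832), Bnip3 at -0.96 (0.0292) and Uap1l1, related to an enzyme of amino sugar synthesis, at -1.37 (0.00245). The sterol genes Idi1 and Sc5d had -1.21 (0.00281) and -0.97 (0.00535). Mt1 had -1.88 (0.0302), and the MHC class I light chain B2m had -1.13 (0.000592).

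The tenth, the interferon-inducible GTPase Iigp1, had -1.13 (0.00464). In the other 9 genes the difference was more positive in batch 2. Matrix genes among them were Col5a2 at 0.83 (0.00165), Prelp at 1.90 (0.000589) and the collagen-binding protein gene Sparc at 0.68 (0.021). Integrin subunits were Itgb1 at 1.02 (0.000589) and Itga5 at 0.77 (0.0362). Cnn1 had 1.54 (0.000119) and Ednra 1.25 (0.0199), and the ligands Bmp4 and Wnt2 had 1.05 (0.0291) and 1.13 (0.0445). In batch 1 alone only Pdpn, Grem1, Ednra and Insig1 of these 19 had passed. Batch 2 also differed from batch 1 in marker sums, with leukocyte markers at 162 to 701 TPM in batch 2 and 33.7 to 94.4 TPM in batch 1. Within batch 2 these sums differed between genotypes too. Leukocyte markers had 701, 695 and 587 TPM in WT 5, WT 6 and WT 7 and 315 and 162 TPM in PAD2KO 6 and PAD2KO 7. Smooth muscle and pericyte markers had 543, 577 and 388 TPM in these WT libraries and 985 and 1240 TPM in these PAD2KO libraries. Sex-linked genes differed as well. Xist had 128 to 528 counts in every batch 2 library, but 3 to 17 in WT 3, WT 4, PAD2KO 1 and PAD2KO 2. WT 7 held both Xist (128 counts) and the Y-linked Ddx3y (32 counts). The part of these markers and genes in the differences between batches was not tested.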

How the results depend on the processing

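The count of 22 genes in batch 1 was 77 without a filter on low counts, 1 with gene length offsets, 13 without robust fitting and 12 when all 11 libraries shared 1 estimate of spread. With the replicate number as a block it was 8, of which 6 were among the 22, but the genotypes share only the numbers 1 and 3. Libraries with the same number deviated from their group means with correlations of 0.06 and 0.04, and WT 4 and PAD2KO 2 with 0.20. These correlations cannot decide what a number marks, and the labels do not say. Leaving out 1 library gave 5 (without WT 3) to 34 (without PAD2KO 1). The count was 17 to 24 with DESeq2, DESeq2's scaling, a filter at 1 CPM, Rn18s left out or a term for high Xist. The 155 genes that differed between batches became 323 without the filter, 26 with length offsets and 34 (without PAD2KO 7) to 222 (without PAD2KO 6) when 1 library was left out. With length offsets in batch 1 the common coefficient of variation was 0.209 in place of 0.114. For the other changed counts the cause was not tested. Among the 84 named genes, no batch 1 log2 difference reversed in any setting where it was estimated. The other genes were not checked for this. As the 84 were chosen by small p in the same libraries, a kept sign was favoured from the start. Of 328 list medians 296 moved by less than the spread between libraries, and 43 of the 328, in 20 of 41 lists, took the other sign, all at sizes up to 0.12; mitochondrial mRNAs went from 0.12 to -0.03 without PAD2KO 1, complement genes from -0.07 to 0.05 without PAD2KO 2, mitosis genes from 0.03 to -0.12 without WT 1 and the genes flanking Padi2 from -0.07 to 0.04 without WT 4. At 1241875 to 1421243 counts per library, a gene with 0 counts may have had up to 2.11 to 2.42 CPM, which limits genes as low as Padi2 and Zfp984.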
